A study of Mus musculus with 4 samples.

Results

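Of the 20364 merged regions of TFIIB signal that the authors called in mouse hearts, 3013 (14.8%) were assigned to no gene, the value 0 in the table's own count of genes, and these intergenic regions are described here. A CpG island lay in 473 of them and was absent from 2540. Whole hearts of C57BL/6 mice were studied by chromatin immunoprecipitation and sequencing, using an antibody against TFIIB (GTF2B). There was 1 library of hypertrophied hearts of 12-week-old male mice after 4 days of transaortic coarctation (TAC), a constriction of the aorta that raises pressure in the heart, 1 of postnatal hearts at 1 to 2 days of age, 1 of normal hearts at 12 weeks, and 1 of input DNA made with no antibody. A whole heart mixes muscle with vessel, connective tissue and blood cells, and whether hearts were pooled is not stated. In the tables the 3 ChIP libraries bear codes found in no sample's labels, so every value below is over all libraries together, TAC, postnatal and adult hearts were not compared, and no value has a replicate error. Of 23 sarcomere genes on a list of heart muscle markers, 22 were in the authors' table of 14469 genes with a TFIIB region, here called listed genes. This is not particular to muscle genes. Also listed were 26 of 26 immediate early and stress genes, and 19 of 20 matrix and growth factor genes. Of the cardiac transcription factors, 24 of 28 were. The share over all annotated genes is not known here, as only genes with a TFIIB region are listed, so nothing is drawn from these counts.

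TFIIB is a general transcription factor: it binds TATA-binding protein on promoter DNA and helps to place RNA polymerase II at the start of transcription. CpG islands are short stretches rich in the dinucleotide CpG that have mostly escaped DNA methylation, and many lie at promoters of broadly expressed genes. Away from annotated genes, general factors can be recovered at promoters of unannotated or noncoding transcripts and at enhancers, distal elements that are themselves often transcribed and contact the polymerase machinery at their target promoters.

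The bases of the regions themselves are not shown, as no mm9 genome was used here. What can be shown is the product of the small RNA genes beside them. Of 130 microRNA genes among the listed genes, 8 (6.15%) were the nearest listed gene of at least 1 region assigned to no gene. Over all 14469 listed genes that share was 12.0%, so microRNA genes had the lower share. How many of the 130 border a gap wide enough to hold such a region was not counted, and the difference was not tested. In all, 26 such regions lay nearest to the 8 genes. Mature sequences from RefSeq (GRCm38.p6) are given for 6 of the 8, since these RNAs are the products of the nearest listed genes, although unlisted genes may lie in the same gaps; the capitals mark the seed, bases 2 to 8, which pairs with target messages.
let-7c: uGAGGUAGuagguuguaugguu
let-7a: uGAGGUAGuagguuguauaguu
miR-26a: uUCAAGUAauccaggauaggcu
miR-148a: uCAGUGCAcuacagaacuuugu
miR-365: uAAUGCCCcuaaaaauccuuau
miR-181c: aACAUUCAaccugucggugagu
The let-7c and let-7a arms share the seed GAGGUAG, and each of the other 4 arms has a seed of its own. The gene of let-7c, Mirnlet7c-2 (now Mirlet7c-2), had 13 of the 26 regions, Mirn365-2 had 3, Mirn148a, Mirn181c and Mirn26a-2 had 2 each, and Mirnlet7a-1 had 1. The other genes, Mirn145 and Mirn143, had 2 and 1 and are named only.

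Regions with a CpG island were built from several called intervals, and regions without one mostly from a single interval. An interval is a stretch called in a single library. Regions of 1 interval therefore come from 1 library, not identified here, while a region of 3 or more may come from up to all 3. Of the 473 island regions, 115 had 1 interval (24.3%, exact 95% interval 20.5 to 28.4%), 125 had 2 and 233 had 3 or more (49.3%, 44.7 to 53.9%). Of the 2540 regions without an island, 1944 had 1 interval (76.5%, 74.8 to 78.2%), 443 had 2 and 153 had 3 or more (6.02%, 5.13 to 7.02%). The odds of being made of 1 interval were 0.0986 times as high with an island as without (95% interval 0.0776 to 0.124; two-sided Fisher's exact test, adjusted p = 3.02e-103 over 5 tests). The same division is known for all regions of these tables, so this is no separate support for it. Regions are not replicates and neighbours are not independent; the p-values and intervals describe counting in the deposited tables, not mice.

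Set beside regions that were assigned to a gene but centred more than 1000 bp from every assigned start, the intergenic regions had 1-interval shares close to theirs in both classes, with neither difference past the threshold. Among island regions, 24.3% of the 473 without a gene and 29.2% of the 1361 with a gene had 1 interval, a difference of -4.93 percentage points that missed the threshold after adjustment (odds ratio 0.777, 95% interval 0.605 to 0.994; Fisher's exact test, p = 0.0431, adjusted p = 0.0539). With only intergenic regions at least 20 kb from listed genes, the difference was -5.84 points and passed (adjusted p = 0.0366, same exact test). Among regions without an island the shares were 76.5% of 2540 without a gene and 76.0% of 6021 with a gene (odds ratio 1.03, 0.922 to 1.15; Fisher's exact test, adjusted p = 0.617). Start-site regions, centred within 1000 bp of a start, had 1 interval in 14.5% of 8358 island regions and in 46.5% of 1611 others. By value alone, the share for island regions without a gene lay between those of gene-assigned island regions away from starts and at start sites. The first difference missed the threshold with all intergenic regions, and the comparison with start sites was not tested. The plot of intervals per region shows these shares.

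**Figure D1:**
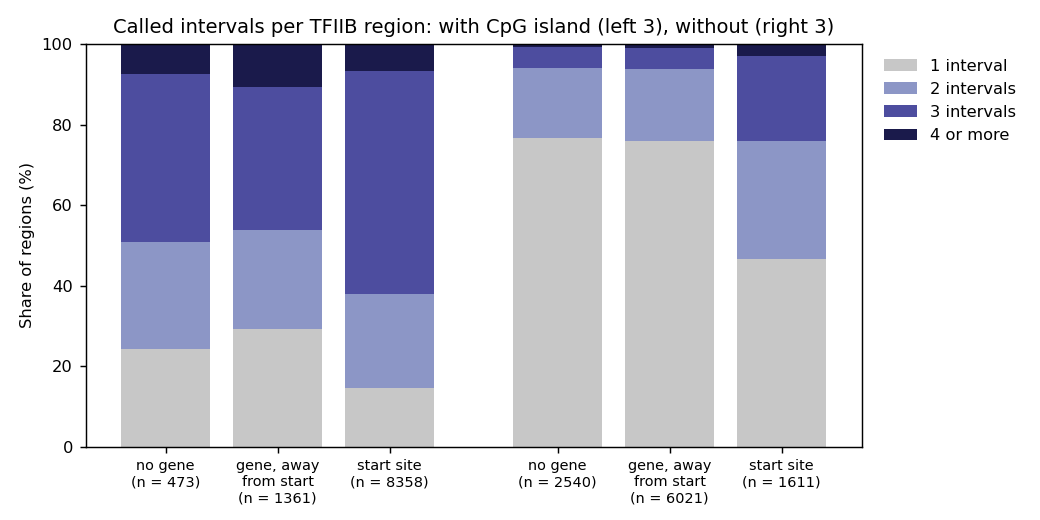
Share of regions (%) with 1, 2, 3 and 4 or more called intervals, for regions assigned to no gene, regions of a gene away from its start and start-site regions, with a CpG island (left) and without (right). The 473 intergenic island regions have 1 interval in 24.3% of cases and the 2540 without an island in 76.5%.

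CpG islands were found in 473 of 3013 intergenic regions (15.7%, exact 95% interval 14.4 to 17.0%) and in 1361 of 7382 gene-assigned regions over 1000 bp from starts (18.4%, 17.6 to 19.3%), with an odds ratio of 0.824 (0.733 to 0.925; Fisher's exact test, adjusted p = 0.00150). This direction rested on where "away from starts" begins: against gene-assigned regions over 5000 bp from starts, of which 13.0% held an island, the intergenic share was higher by 2.67 points (adjusted p = 0.00146 by the same exact test). With regions of the same class chained within 10 kb counted once, the difference of -1.17 points did not pass (Fisher's exact test, adjusted p = 0.387). Of the island regions, 456 held 1 island and 17 held 2. None of the 3013 regions was counted as holding a promoter.

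Regions with an island were also longer. Their median length was 1407 bp (interquartile range 977 to 1878 bp), against 806 bp (602 to 1103 bp) for regions without an island, and they spanned 270 to 4863 bp and 170 to 5300 bp. Length grew with the number of intervals in both classes. At 1 interval the medians were 788 bp with an island and 740 bp without, at 2 intervals 1188 and 1031 bp, and at 3 or more 1791 and 1469 bp, so that the medians differed by less within each interval class than overall. Length and interval number are both set by the authors' calling, with thresholds that are not stated. At 3000 bp or more stood 17 island regions and 11 others.

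**Figure D2:**
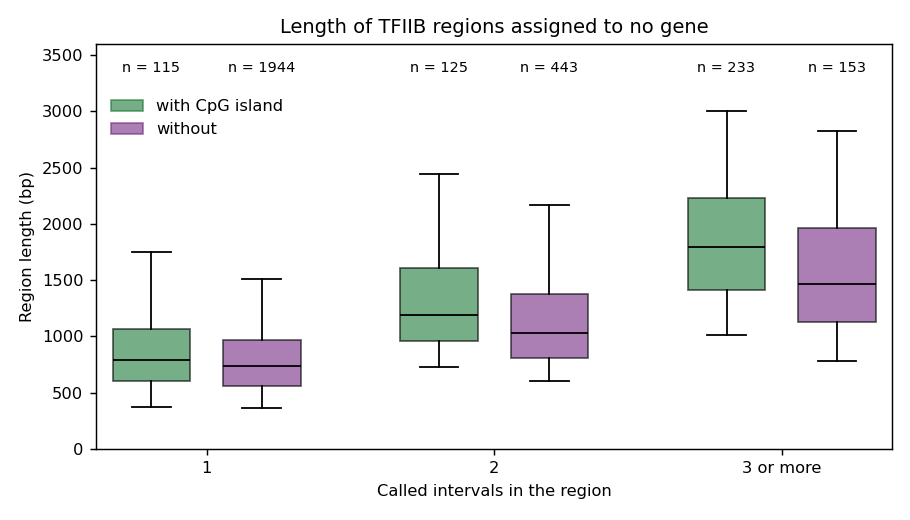
Length in bp of the 3013 regions assigned to no gene, by number of called intervals, with a CpG island (green) and without (purple). Boxes span the quartiles with the median as a line, and whiskers the 5th to 95th percentile; the medians with an island are 788, 1188 and 1791 bp at 1, 2 and 3 or more intervals.

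Distance was measured to listed genes only, that is genes with a TFIIB region of their own, and was not tested between the classes. It ran to gene edges as the authors recorded them. A longer transcript of a listed gene could therefore lie closer to a region, or over it. The nearest listed gene lay at a median of 37.0 kb from island regions (interquartile range 20.8 to 73.9 kb) and 38.1 kb from the others (20.1 to 84.6 kb). The closest stood 10003 bp away and no gene-assigned region had a gap of 10 kb or more, so 10 kb is the reach of the authors' assignment. Regions just outside and just inside that reach are given without a test. The 121 intergenic regions at 10 to 11 kb had an island in 16.5% and 1 interval in 70.2% of cases, and the 141 gene-assigned regions at 9 to 10 kb had an island in 15.6% and 1 interval in 73.0%. Up to 500 kb the 1-interval share of regions without an island went up with distance, at 73.4%, 74.9%, 78.4% and 81.5% for 10 to 20, 20 to 50, 50 to 100 and 100 to 500 kb. That of island regions was 27.2%, 27.4%, 22.5% and 17.5% over the same steps. Beyond 500 kb there were 10 island regions, none of them of 1 interval. Of the 30 others there, 23 (76.7%) had 1 interval, a lower share than at 100 to 500 kb. The nearest listed gene was one whose upstream side faced the region in 273 of 473 island regions (57.7%, exact 95% interval 53.1 to 62.2%) and in 1337 of 2540 others (52.6%, 50.7 to 54.6%).

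**Figure D3:**
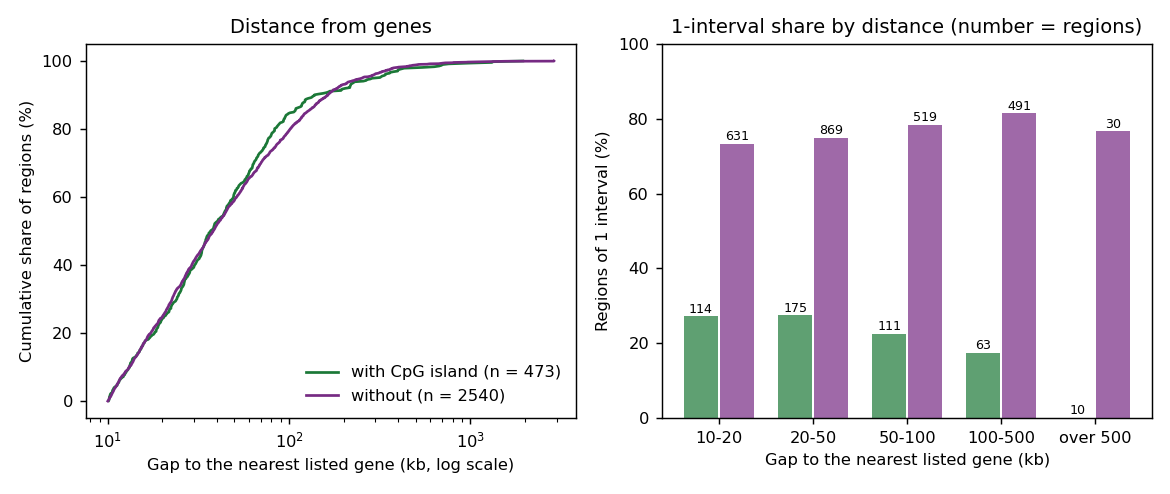
Left, cumulative share of intergenic regions (%) by the gap in kb to the nearest listed gene (log axis), with a CpG island (green) and without (purple); medians are 37.0 and 38.1 kb. Right, share of regions of 1 interval (%) in each distance class, with the number of regions above each bar. Without an island it goes from 73.4% at 10 to 20 kb to 81.5% at 100 to 500 kb, and is 76.7% beyond 500 kb.

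The most remote regions were a pair on chromosome 2, at 98502296 to 98503258 and 98506290 to 98507591 (mm9 throughout), 2898 and 2893 kb from the nearest listed gene, B230118H07Rik. Both had 3 intervals and no island. That stretch is on commonly used lists of mm9 intervals that are left out of ChIP-seq work; whether its signal is TFIIB binding was not tested. The next was an island region of 2 intervals on chromosome 3, at 25042369 to 25043140, 1953 kb from Ect2.

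The island region with most intervals had 7 of them and 2 islands, and ran from 41366901 to 41370398 on chromosome 3, 60.2 kb from Sclt1, a centriole gene. A region of 6 intervals at 99470656 to 99473858 on chromosome 6 stood 101 kb from Eif4e3, of the cap-binding family. On its other side the listed start of Foxp1, a forkhead transcription factor gene of the developing heart, was 358 kb away. Foxp1 is transcribed away from the region. Another of 6 intervals and 4452 bp, at 96114929 to 96119381 on chromosome 15, lay between Tmem16f (now Ano6), a phospholipid scramblase gene, and Sfrs2ip (now Scaf11). On chromosome 7, a region of 5 intervals at 16631636 to 16634763 lay 22.5 kb from Zfp541 and 46.8 kb from Gltscr1. On chromosome 16, 42874533 to 42877039 held 5 intervals and an island. This region stood 633 kb upstream of the listed start of Zbtb20, a zinc finger repressor gene. Whether longer transcripts of the flanking genes reach these regions was not examined. In all, 1 island region had 7 intervals, 2 had 6 and 11 had 5, and ties were broken by length in choosing which to describe.

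The region without an island that had most intervals, 5, lay before the listed start of Zbtb20 as well. It was at 43362736 to 43365684, 145 kb from that start. A further 15 such regions had 4 intervals. The longest, 5300 bp at 30571208 to 30576508 on chromosome 2, lay 51.7 kb from EG665645. Among the others were 154607447 to 154610920 on chromosome 4, 10.8 kb from Ski, a corepressor gene of TGF-beta signalling, and 53703663 to 53706483 on chromosome 12, 93.9 kb from Akap6, which encodes a kinase-anchoring scaffold of the heart muscle nuclear envelope. A region at 3805834 to 3808526 on chromosome 12 stood 26.5 kb from the listed start of Dnmt3a, a de novo DNA methyltransferase gene. Longer transcripts of the genes named here were not examined.

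Intergenic regions often stood in chains. Joined wherever less than 10 kb separated them, the 3013 regions fell into 2326 groups, of which 1859 were single regions and 467 were chains of 2 or more. Chains held 155 island regions (32.8%) and 999 others (39.3%), and 24 chains had 5 or more regions. Another TFIIB region of any kind lay within 10 kb of 167 of 473 island regions (35.3%) and of 1111 of 2540 others (43.7%), an odds ratio of 0.702 (0.569 to 0.865 at 95% confidence; adjusted p = 0.00150, Fisher's exact test). Where chains were built within each class and only the region with most intervals was kept, which leaves 2433 intergenic regions and removes regions because they have a neighbour, the difference turned to 2.16 points, which did not pass (adjusted p = 0.478, same exact test). The median span of a chain was 6.28 kb, and 349 of the 467 chains held no island.

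The largest chain, 16 regions within 54.9 kb, stood on chromosome 17 from 84473234 to 84528108, between Mta3, a NuRD complex gene, and Zfp36l2, which encodes an RNA-binding protein that speeds messenger decay. Its regions measured 606 to 2272 bp and had 1 or 2 intervals each, 9 of them 1, and the longest was the only one with an island. Zfp36l2 was the nearest listed gene of 22 intergenic regions, the most of any gene, all on its downstream side at 34.5 to 139 kb. RefSeq has 15 further genes in the gap of 369 kb between Mta3 and Zfp36l2, 12 of them long noncoding RNA genes. The second chain, of 8 regions in 35.3 kb on chromosome 9, lay between Ulk4 and Trak1, a motor adaptor gene for mitochondria, and its first region had 4 intervals. The third also had 8 regions, in 26.3 kb on chromosome 2, 62.3 kb downstream of Cebpb, a leucine zipper factor gene, and a chain of 7 regions in 40.1 kb followed in the same gap. Leaving these 3 chains out, a choice made after seeing the data, moved none of the 5 tests across the threshold.

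**Figure D4:**
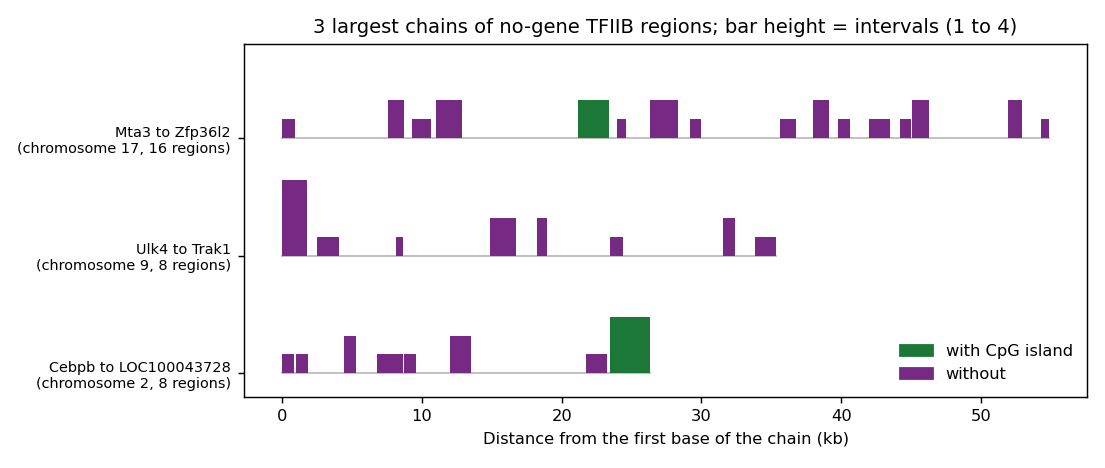
The 3 largest chains of intergenic TFIIB regions, with distance in kb from the first base of each chain; bar width is region length, and bar height the number of called intervals, 1 to 4. The chain between Mta3 and Zfp36l2 holds 16 regions in 54.9 kb, and 1 of them carries a CpG island (green).

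The 13 regions before Mirnlet7c-2 formed a series along chromosome 15, all upstream of the microRNA gene at 18.9 to 105 kb. The let-7 family restrains growth-promoting messages and accumulates as tissues mature. RefSeq has 5 further genes between Mirnlet7c-2 and Atxn10, the listed gene on the other side, among them Wnt7b, a Wnt ligand gene. Of the 13 regions, 5 had 1 interval, and 4 held an island. The highest had 4 intervals, no island and 2530 bp, at 85507778 to 85510308, and was 26.7 kb from the gene. An island region of 3 intervals and 3299 bp, at 85499417 to 85502716, lay 34.3 kb from it. Mirnlet7c-2 itself had 3 assigned regions and a peak value of 17, the authors' highest signal of any library over those regions, on an unstated scale; the median over all listed genes was 34.

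Each of the 3013 intergenic regions had 1 nearest listed gene, so only a minority of the listed genes could be counted here. Of 14469 listed genes, 1737 (12.0%) were the nearest listed gene of at least 1 intergenic region, 423 (2.92%) of an island region and 1504 (10.4%) of a region without an island. Of the 1737, 1085 had 1 such region and 70 had 5 or more. After Zfp36l2 came Tomm20, encoding a mitochondrial import receptor, with 14, Mirnlet7c-2 and the septin gene Sept9 with 13 each, Cebpb with 12, and Qk, an RNA-binding splicing factor gene, with 11. Irf2bp2, a transcriptional corepressor gene, had 10, and Rad51c had 8, of which 6 held an island. The peak value of the 1737 genes, taken over their own regions, had a median of 35 (interquartile range 23 to 51), near the 34 (24 to 47) of all listed genes.

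Some genes on each of 4 lists of heart-related genes were the nearest listed gene of an intergenic region. Against the 12.0% of all listed genes, and 19.7% of the 8783 that border a gap of over 20 kb, where alone a region can be 10 kb from both flanks, 13 of 26 immediate early and stress genes were the nearest listed gene of an intergenic region, all 13 being among the 19 that border such a gap. The count was 9 of 24 for cardiac transcription factors (9 of 23 beside a gap), 8 of 19 for extracellular matrix and growth factor genes (8 of 15) and 4 of 22 for sarcomere genes (4 of 15). The lists were chosen with earlier results of these data known and were not tested, so these are counts, and nothing particular to a list is drawn from them.

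**Figure D5:**
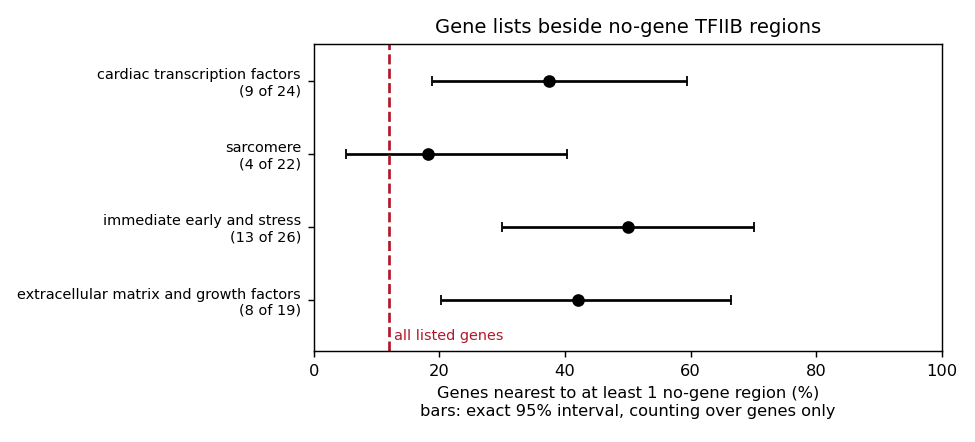
Share of genes (%) on 4 lists that were the nearest listed gene of at least 1 intergenic TFIIB region; bars are exact 95% intervals that cover counting over genes only, and the dashed line is the 12.0% of all 14469 listed genes. The sarcomere genes have the lowest share, 18.2%, and the immediate early and stress genes the highest, 13 of 26.

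Gadd45g, a growth arrest gene, had the most of the list genes, 6 regions without an island, all downstream and up to 231 kb away. Jun, an AP-1 subunit gene, had 5 upstream at 29.3 to 109 kb, of which the farthest, at 94827417 to 94828837 on chromosome 4, had 2 intervals and an island and the other 4 had 1 interval. Klf4, a zinc finger factor gene, had 5 as well. Its region 11.7 kb downstream had 2 intervals and an island, the one 118 kb upstream had 3 and an island, and the farthest, 581 kb upstream, had 3 and none. Fos, the partner of Jun, had 4, and the only one with more than 1 interval was an island region of 3 intervals 17.6 kb upstream, at 86795695 to 86797298 on chromosome 12. Of the 3 regions beside the antiproliferative gene Btg2 none had 1 interval. Atf3 and Ier5, 2 other immediate early genes, had 1 island region of 3 intervals each, 40.1 kb upstream and 13.2 kb downstream.

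Of the cardiac transcription factors, Gata4 had 4 regions upstream, from 10.3 to 25.5 kb away on chromosome 14. The nearest held an island and 1 interval, and the farthest, 63889574 to 63890937, had 4 intervals and no island. Gata6 had 5 downstream, at 59.0 to 288 kb, 4 of them of 1 interval. Tbx20 had 2, 181 and 219 kb downstream, with 2 intervals and, in the farther island region, 3. Tead1, Irx3, Foxp1, Myocd, Irx4 and Prox1 had 1 to 3 each, none with an island. Of the sarcomere genes, Tpm1, the main tropomyosin gene of the heart, had 4 regions, all of 1 interval and without an island, and Actc1, Des and Ttn had 1 each, likewise of 1 interval. Ctgf (now Ccn2), Col4a1, Col1a2, Tgfb2 and Vegfa had 2 or 3 regions, all of 1 interval. No matrix or sarcomere gene on the lists had an island region nearest to it. Over all listed genes only 2.92% did, so nothing is drawn from this count.

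A later annotation shows what else lies in the gaps that hold the regions. For 2597 of the 3013 regions both flanking listed genes could be found, in the same order and apart, in RefSeq's table of assembly GRCm38.p6, which was used for gene order only. Between the flanks that table had no further gene for 71 of 416 island regions (17.1%, exact 95% interval 13.6 to 21.0%) and 285 of 2181 others (13.1%, 11.7 to 14.6%). Such regions need not be free of genes. A flanking gene that is longer in RefSeq could reach them, and this was not measured. At least 1 protein-coding gene stood between the flanks for 209 island regions (50.2%) and 740 others (33.9%). A long noncoding RNA gene did so for 285 island regions (68.5%) and 1722 others (79.0%). The gaps had similar median widths, 169 kb for island regions and 186 kb for others, and a gene in the gap need not lie at the region. The 416 island regions lay in 361 distinct gaps and the 2181 others in 1133. Regions in the same gap share its genes, so these shares count some gaps repeatedly, and the exact intervals do not allow for that.

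Genes between the flanks are, by construction, almost all outside the table of listed genes. Whether the authors' annotation held them is not stated, so a region assigned to no gene may lie near or in a gene that was not considered. The island region of 5 intervals at 94789809 to 94793142 on chromosome 16 lay between Dscr3 and Kcnj6, where RefSeq has Dyrk1a, a dual-specificity kinase gene, and 2 long noncoding RNA genes. That at 31700322 to 31703121 on chromosome 17 lay in a gap with Pknox1, a homeobox factor gene, and Cbs, a gene of cysteine synthesis. The gap of the region of 6 intervals on chromosome 15 holds Arid2, a SWI/SNF chromatin remodelling gene, among 9 genes. Whether the regions lie at the starts of these genes could not be measured, since the builds differ. Where RefSeq has exactly 1 gene in the gap, it was a long noncoding RNA gene for 21 of 41 island regions and 221 of 307 others, and a protein-coding gene for 8 island regions and 18 others. Among the 8 were regions of 3 intervals in the gaps that hold Gatad2b, Dip2b and Fgfr4. The counts by gene type are of regions, so a gap with several, such as that of A330074K22Rik, enters more than once. Distinct gaps were not counted by gene type, and nothing is drawn from the difference between the classes.

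Gaps with an intergenic region were set beside gaps of like width without one, as a description. Of the gaps of over 20 kb between listed genes, 1497 held at least 1 region and 4428 held none, and 1324 and 4008 of these could be read in RefSeq. From 20 to 50 kb wide, 32.8% of gaps with a region and 23.1% of gaps without had a long noncoding RNA gene, from 50 to 100 kb 60.1% and 42.1%, and from 100 to 200 kb 73.9% and 60.9%. Protein-coding genes ran the other way, at 3.65% and 16.9%, 17.3% and 40.4%, and 37.1% and 61.0%. An annotated gene in the gap leaves less room for a region 10 kb from every gene, and its part in these shares was not tested.

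Transfer RNA genes, which RNA polymerase III transcribes with a set of initiation factors that includes a relative of TFIIB, were in 35 of the 1324 gaps with a region (2.64%) and in 41 of the 4008 without (1.02%). In the 4 width classes up to 500 kb the shares were 3.13%, 1.66%, 2.68% and 2.84% with a region and 0.533%, 0.667%, 0.855% and 1.03% without; above 500 kb they were 3.20% and 3.15%. In 2 narrow gaps RefSeq has tRNA genes and nothing else in clusters of 4, with 2 regions of up to 3 intervals between Dnajc5b and Trim55 on chromosome 3 and 1 region of 1 interval between Trim7 and Irgm on chromosome 11. Another, between Mdm4 and Pik3c2b on chromosome 1, has 2 tRNA genes alone and an island region of 3 intervals at 134942333 to 134943724. The gap of 33.1 kb between Abt1 and Btn1a1 on chromosome 13 has 14 tRNA genes, 3 long noncoding RNA genes and 2 regions. The second longest region without an island, 4487 bp with 4 intervals at 12083773 to 12088260 on chromosome 19, lay 15.2 kb after Osbp in a gap of 467 kb that has 8 tRNA genes among 34. These gaps were chosen after their values were seen.

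Intergenic regions were found on all autosomes and on X, and none of the 3 regions on Y was one. They made up 9.77% to 19.7% of the regions of an autosome and 13.0% of those on X. Islands were in 20 of 51 intergenic regions on X (39.2%, exact 95% interval 25.8 to 53.9%) and in 453 of 2962 on autosomes (15.3%), where single chromosomes had 10.2% to 19.7%. Gene-assigned regions away from starts had islands in similar shares, 39.5% of 76 on X and 18.2% of 7306 on autosomes. Within the island class, 5 of 20 intergenic regions on X and 110 of 453 on autosomes had 1 interval. The X chromosome was singled out after its value was seen and was not tested.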

How the data were processed

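Immunoprecipitation and Illumina sequencing were done by a service company, per the labels' protocols; the build is mm9, per the submitters' processing notes. The aligner, interval caller, thresholds and role of the input are not given in the sources used. The authors deposited a table of merged regions and a table of genes. For each gene the authors deposited a peak value, a signal with no stated unit. Sequencing depth is unknown from these tables. The 15 columns of per-library values carry codes that match no label and were not used, so the comparisons of TAC and neonate with adult were not run. A gap runs from region edge to gene edge, as the authors recorded that edge. Fisher's exact tests, two-sided, were adjusted by the Benjamini-Hochberg method over 5 tests and called at 0.05; the 95% intervals of shares are exact (Clopper-Pearson) and cover counting only. Of 14469 gene IDs, 13655 matched RefSeq. Regions named are the 10 of each class with most intervals (ties by length), the 3 longest and the 3 largest chains, with a few not described; others were named with their values known. The regions, lists and tests were chosen with earlier results of these data known. Distance and chaining code was tested on simulated data. Python 3.11.15, scipy 1.17.1 and pandas 2.3.3 were used.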

Additional observations from a re-analysis of the deposited data

How the results depend on the processing

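The 1-interval share of intergenic island regions lay below that of regions without an island under the alternatives run, with a difference of -54.2 to -51.4 points; for shares of at most 2 intervals it was -43.2 points. With chained regions counted once, the island share against gene-assigned regions lost its call (-1.17 points), and the difference in neighbours within 10 kb turned to 2.16 points (adjusted p = 0.478 by the exact test); by construction this setting removes regions that have a neighbour of their class. Starts set at 5000 bp turned the island share to 2.67 points; the cause was not tested. With regions at least 20 kb from listed genes, the 1-interval difference between intergenic and gene-assigned island regions passed the threshold (-5.84 points; adjusted p = 0.0366 by the exact test, against 0.0539 in the reported test and 0.0617 to 0.783 in its other alternatives). The other tested values kept direction and side. The share of genes on the 4 lists nearest to an intergenic region was 29.7% at 20 kb or more, against 37.4% with all intergenic regions. Over all listed genes it was 12.0% with all intergenic regions. At 20 kb or more that share was not computed, so nothing is drawn from the 29.7%. Leaving out a replicate was not possible with 1 library a group. No paired analysis was possible because each group has 1 library. Depth is not given, so the precision of a call in a single library is unknown.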
